A study of Homo sapiens with 12 samples.

Results

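The genes described here build and degrade glycogen, the branched glucose polymer in which cells hold a reserve of sugar. The group held 9 genes, namely PGM1, UGP2, GYG1, GYS1, GBE1, PPP1R3B, PPP1R3C, PYGL and PYGB, out of 56537 gene names of the whole series with a transcript of class code = or j. Members were taken by gene name, and the abundance of a gene was the sum over its transcripts whose exon structure matched the reference (class code =) or shared at least 1 splice junction with it (class code j). These were 123 transcripts, of which 84 were above 0 in at least 1 library.

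RNA came from HCT116, an established human colorectal cancer cell line, and the labels name no transgene, deletion or drug in any group. Cells were left in 21% oxygen (the 0 h group) or moved to 1% O2 for 1, 2 or 24 h, with 3 biological replicate libraries at each of the 4 time points and 12 libraries in all. Exposure began 24 h after plating, and the sources used here do not say when the 0 h cells were harvested, so time in culture and time in low oxygen cannot be told apart. Abundance was measured by strand-specific poly(A) RNA sequencing and is given as FPKM, the sequenced fragments of a transcript divided by its length and by the size of the library, which allows levels of different genes to be compared per length.

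Glycogen is made from glucose 6-phosphate. Phosphoglucomutase (PGM1) turns it into glucose 1-phosphate, UDP-glucose pyrophosphorylase (UGP2) activates it to UDP-glucose, glycogenin (GYG1) primes a new particle, glycogen synthase (GYS1) extends the chains and the branching enzyme (GBE1) adds the branch points. Glycogen phosphorylases, of which PYGL is the liver and PYGB the brain form, release glucose 1-phosphate again. PPP1R3B and PPP1R3C are targeting subunits that bring protein phosphatase 1 to glycogen, where it activates the synthase. Tumour cells in low oxygen are known to store glycogen, and several of these genes are known targets of hypoxia-inducible factors (HIF).

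After 24 h, 3 of the 8 glycogen genes that could be tested rose, where 8.76% of all genes tested did; under TPM, a second scale, the calls of GBE1 and PGM1 were lost. PPP1R3B went up 8.98-fold, GBE1 3.79-fold and PGM1 3.71-fold as ratios of mean FPKM (n = 3 at each time). GYS1, PYGL and UGP2 were 1.73, 1.61 and 1.55 times their 0 h level, short of the fold threshold, and GYG1 and PYGB lay at 0.593 and 0.711 times theirs. The signs of GYS1, PYGL and UGP2 turned on the TPM scale, in which every library has the same sum over all transcripts and the median log2 fold change of all genes moved from -0.05 to -0.78. Relative to the median of all genes on each scale, 6 members were higher and 2 lower under each of 4 scalings. Subtracting that median removes a shift common to all genes, so the 4 scalings are not independent checks.

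The study's thresholds were applied, so that a call needs a log2 fold change beyond 1 in either direction together with an adjusted p below 0.01, in a limma fit of log2(FPKM + 0.5) over all 12 libraries. Genes entered the fit at an FPKM above 0.5 in at least 3 libraries, which 8 members and 16680 genes in all did. At 24 h against 0 h 3 of the 8 tested members were called, all higher, where the call covered 18.3% of all genes tested (8.76% higher and 9.51% lower, or 1462 and 1586 genes, against 209 and 3995 under TPM). The median log2 fold change was 0.71 over the 8 members and -0.05 over all genes tested, and -0.15 and -0.78 under TPM. All 8 passed the adjusted p alone, as did 41.5% of all genes, and for all 8 the 3 values at 24 h lay outside the range at 0 h, which held for 60.4% of all genes. The values of GBE1 and PGM1 under TPM were 1.00 and 0.97. Calls of GYG1 and PYGB, as lower, were gained there, where 3995 of 14531 genes tested were called lower.

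**Figure D1:**
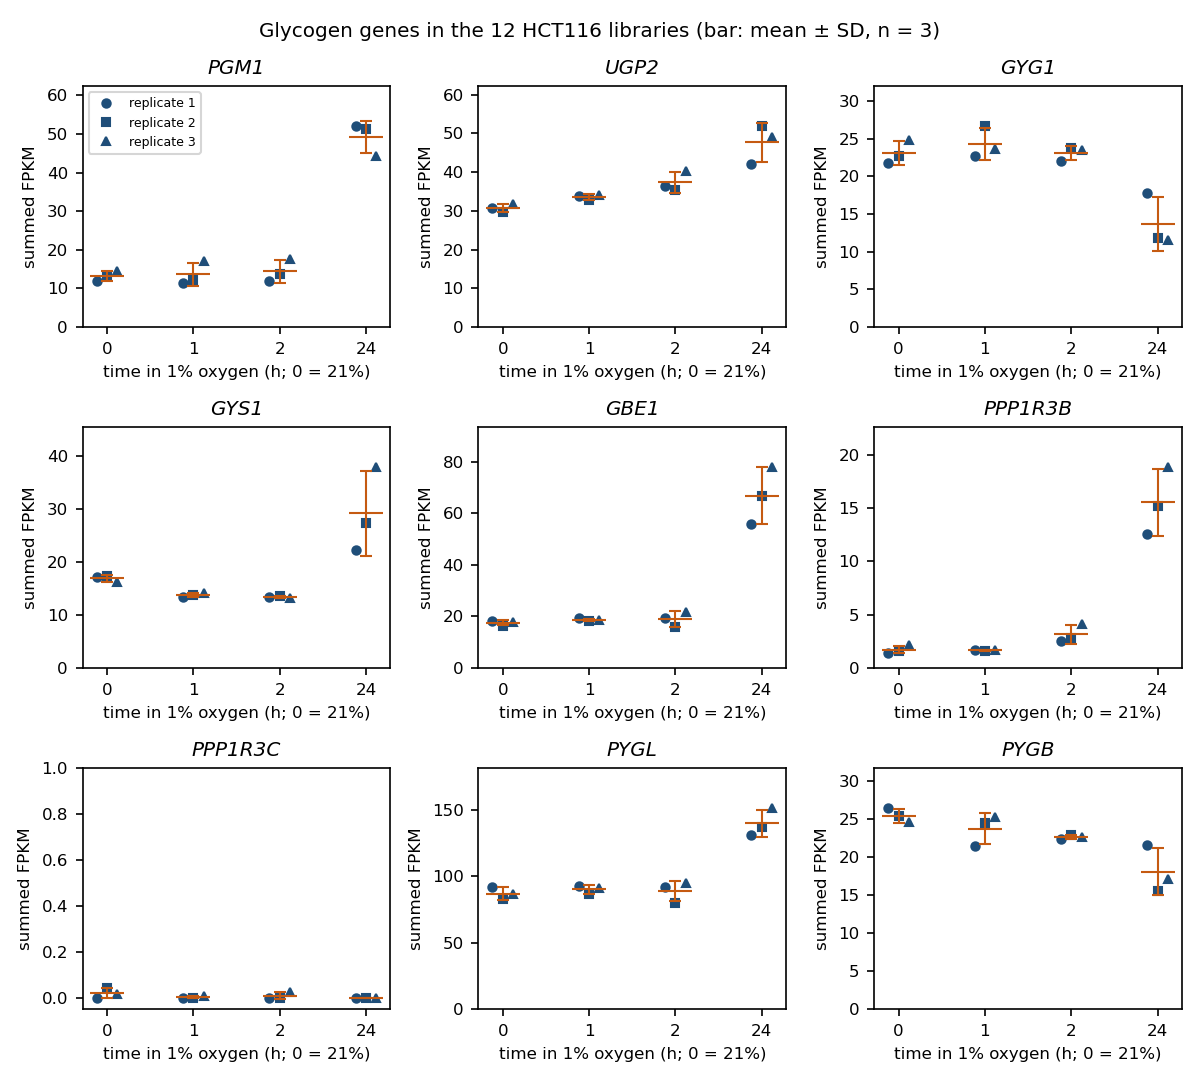
Summed FPKM (vertical axes, linear) of the 9 glycogen genes against time in 1% oxygen (horizontal axes, h), 1 panel a gene; points are the 12 libraries, marked by replicate, and bars give the mean and SD of 3. PPP1R3B, GBE1 and PGM1 stand apart at 24 h, GYG1 and PYGB lie below their 0 h values in FPKM as deposited, and PPP1R3C stays at or near 0. Under TPM, not drawn, the 24 h differences of GYS1, PYGL and UGP2 turn negative.

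Read depth was not analysed here, so precision is judged from the spread of 3 libraries. Between 57.0% and 87.6% of a library's FPKM sum, which is the divisor of the TPM scale, came from transcripts shorter than 300 bases. Of 6 colorectal epithelial markers 5 passed the filter, with summed levels of 1998 to 2820 FPKM at 0 h and 2491 to 2730 at 24 h, while VIL1 was below 0.05 throughout. Within this sum CDH1 was called higher at 24 h (log2 fold change 1.76) and KRT19 was 1.98 times its 0 h mean (0.99, limma adjusted p = 1.7e-05), whereas EPCAM (-0.28), KRT8 (-0.16) and KRT18 (-0.20) did not pass. Under TPM the values were 0.88 for CDH1, whose call was lost, 0.12 for KRT19, -1.15 for EPCAM, -1.03 for KRT8 and -1.08 for KRT18. Leukocyte markers (0 of 3 past the filter, sums of 0 to 0.0979 FPKM) and endothelial markers (0 of 3, sums of 0.00469 to 0.0934) were near 0, with PECAM1 at 0 in all 12 libraries. Of 4 fibroblast markers only COL1A1 passed, and the sum lay between 1.82 and 2.16 FPKM at 0 h and between 5.75 and 8.79 at 24 h, while LUM stood at 0 in all libraries and COL1A2 and DCN at 0 in all 24 h libraries. COL1A1 was called higher at 24 h as deposited (log2 fold change 1.59) and not called under TPM (0.73). The part of CDH1, KRT19 and COL1A1 in the differences of the glycogen genes at 24 h was not tested.

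The precursor enzymes come first. PGM1 (ENSG00000079739, GRCh37 chr1:64059082-64125916, plus strand) measured 11.95, 13.3 and 14.6 FPKM in the 3 libraries at 0 h. It stood at 11.5, 12.3 and 17.2 after 1 h, at 11.9, 13.8 and 17.6 after 2 h and at 52.0, 51.3 and 44.3 after 24 h. The lowest 24 h library was far above the highest library of the earlier times, and the earlier times overlapped throughout. The log2 fold change at 24 h was 1.85 ± 0.17 (SE, limma adjusted p = 3.2e-06). A single transcript, ENST00000371084, which encodes 562 residues, carried 99.5% ± 0.467 (SD, n = 3) of the gene at 0 h and 99.3% ± 0.886 at 24 h, so gene and transcript moved as 1 unit.

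UGP2 (ENSG00000169764, chr2:64068086-64118696, plus strand) measured 30.7, 29.7 and 31.9 FPKM at 0 h. Its values were 33.8, 32.8 and 34.1 after 1 h, 36.5, 35.3 and 40.3 after 2 h and 42.1, 51.9 and 49.0 after 24 h. At each later time the 3 libraries lay above all those at 0 h. The log2 fold change was 0.27 ± 0.095 at 2 h (limma adjusted p = 0.22) and 0.62 ± 0.095 at 24 h (limma adjusted p = 0.00016), below the fold threshold at both. Under TPM the values were -0.49 at 1 h, -0.78 at 2 h and -0.24 at 24 h, the last 0.54 above the median of all genes on that scale.

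The 2 leading UGP2 transcripts differed in their response. ENST00000394417 starts 927 bases upstream of ENST00000337130, and the encoded proteins have 497 and 508 residues. The longer-protein transcript ENST00000337130 measured 4.18, 3.43 and 3.48 FPKM at 0 h and 11.1, 14.3 and 14.7 at 24 h, with no overlap, and was called at 1.72 ± 0.20 (log2 fold change ± SE, limma adjusted p = 0.00015). ENST00000394417 measured 24.8, 23.5 and 24.9 FPKM at 0 h and 28.9, 29.1 and 29.1 at 24 h, a log2 difference of 0.25 ± 0.096 (limma adjusted p = 0.080). Of the 16.9 FPKM by which the mean of the gene was higher at 24 h, ENST00000337130 made up 57.4% and ENST00000394417 27.5%, a split computed after the values had been seen. Under TPM these fold changes were 0.83 and -0.59, while the shares below are ratios within a library and do not depend on scaling.

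ENST00000394417 held 79.3% ± 1.23 (SD, n = 3) of UGP2 at 0 h and 61.4% ± 6.49 at 24 h. The two-sided exact permutation test gave p = 0.1, the smallest that 3 against 3 libraries allow. The 3 transcripts that begin at the start of ENST00000337130 took 13.6%, 12.3% and 10.9% of the gene at 0 h, and 26.3%, 28.5% and 30.4% at 24 h. Their share averaged 12.6% ± 2.46 after 1 h and 12.2% ± 1.64 after 2 h, within reach of the 0 h values. The grouping by start site was chosen after the values had been seen (24 h against 0 h, exact permutation p = 0.1).

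Because the 2 UGP2 transcripts differ in their start, the 250 bases upstream of each start are shown, from GRCh37 with GENCODE 44 starts, 5′ to 3′. Capitals mark the words ACGTG and GCGTG on either strand (printed as CACGT and CACGC where they lie on the opposite strand), the 5-letter core of the HIF response element. Of the window before ENST00000394417, 17 bases are annotated as exon of other UGP2 transcripts, and 106 bases lie in an exon of a gene on the opposite strand. Of the window before ENST00000337130, which lies inside the gene, 45 bases are exonic in another UGP2 transcript.
UGP2 ENST00000394417, chr2:64067853-64068102, plus strand: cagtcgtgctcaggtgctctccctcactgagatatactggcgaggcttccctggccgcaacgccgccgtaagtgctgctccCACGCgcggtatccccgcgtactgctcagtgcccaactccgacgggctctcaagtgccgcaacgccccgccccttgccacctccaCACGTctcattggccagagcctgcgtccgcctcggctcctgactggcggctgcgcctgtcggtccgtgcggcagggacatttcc
UGP2 ENST00000337130, chr2:64068780-64069029, plus strand: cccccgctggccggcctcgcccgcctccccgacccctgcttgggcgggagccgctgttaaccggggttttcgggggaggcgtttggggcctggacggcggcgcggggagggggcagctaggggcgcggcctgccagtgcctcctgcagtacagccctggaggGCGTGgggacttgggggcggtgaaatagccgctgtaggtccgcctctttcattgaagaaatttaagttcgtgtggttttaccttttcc

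The upstream window held 2 matches, at -169 and -84 from the start, both on the opposite strand, and the downstream window held 1, at -88. Among 20086 coding genes, 47.8% of windows of the same length had at least 1 match, 21.6% at least 2 and 8.44% at least 3. A match of 5 letters is a description of the sequence and not a mapped binding site. The windows of GBE1, PGM1 and PYGB are printed further on, and for the other tested members the number of matches is given.

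GYG1 (ENSG00000163754, chr3:148709195-148749562, plus strand), the protein primer of the particle, was the furthest below its 0 h level at 24 h among the 8 tested members. It measured 21.8, 22.7 and 24.9 FPKM at 0 h, between 22.1 and 26.7 at 1 h and 2 h, and 17.8, 11.8 and 11.5 at 24 h. Replicate 1 of the 24 h group was closest to the 0 h range, and the groups did not overlap. The log2 fold change of -0.76 ± 0.15 (SE, limma adjusted p = 0.00086) did not reach the fold threshold, and it was -1.52 under TPM, which differs by -0.74 from the median of all genes there. Its main transcript ENST00000296048 measured 18.9, 21.3 and 22.6 FPKM at 0 h and 12.2, 10.7 and 10.8 at 24 h (log2 difference of -0.87 ± 0.12, limma adjusted p = 0.00040). No match to either word was present in its 250-base window.

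GYS1 (ENSG00000104812, chr19:49471387-49496567, minus strand), the synthase of most tissues outside the liver, had a different time course. It measured 17.1, 17.4 and 16.1 FPKM at 0 h, and 13.5, 13.8 and 14.1 at 1 h. Values of 13.3, 13.5 and 13.3 followed at 2 h, and of 22.3, 27.2 and 37.9 at 24 h. The 1 h and 2 h libraries were thus all below, and the 24 h libraries all above, those at 0 h. Neither early difference passed the test, with log2 fold changes of -0.28 ± 0.15 at 1 h (limma adjusted p = 1.0) and -0.32 ± 0.15 at 2 h (limma adjusted p = 0.33).

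At 24 h the log2 fold change of GYS1 was 0.74 ± 0.15 against 0 h (limma adjusted p = 0.0012) and 1.06 ± 0.15 against 2 h (limma adjusted p = 9.9e-05), so the call was made against 2 h alone. Replicate 3 decided that call, since without it the difference from 2 h was 0.86 (limma adjusted p = 6.3e-05; 2.6e-05 to 0.056 over the alternatives). Under TPM the 24 h against 0 h value was -0.11, which is 0.67 above the median of all genes. Transcript ENST00000323798, encoding 737 residues, carried 78.9% ± 4.90 (SD, n = 3) of GYS1 at 0 h and 81.5% ± 3.74 at 24 h (exact permutation p = 0.5). A retained-intron transcript of low abundance, ENST00000472004, was called as well, from a mean of 0.0289 FPKM to 1.00 FPKM, with a log2 fold change of 1.43 ± 0.30 (limma adjusted p = 0.0052). With a 0 h mean this low, ENST00000472004 passed the filter through libraries in 1% oxygen alone, that is, through groups where it is high. Its call was lost with a pseudocount of 1, with no filter, with the replicate block and without any 1 of the 0 h libraries or of replicates 1 and 3 at 24 h, and it did not pass the filter under TPM, at a minimum of 1 FPKM or with the 6 libraries of the contrast.

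GBE1 (ENSG00000114480, chr3:81538854-81810796, minus strand), the branching enzyme, measured 18.4, 16.4 and 18.0 FPKM at 0 h. Values at 1 h (19.3, 18.2 and 18.5) and at 2 h (19.6, 15.8 and 21.7) overlapped with these, and at 24 h they were 55.9, 66.5 and 77.8. Every 24 h library was above 2 times the highest earlier one. The log2 fold change at 24 h was 1.88 ± 0.13 (SE, limma adjusted p = 7.8e-07).

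Both main GBE1 transcripts rose, in like proportion. ENST00000489715, encoding 661 residues, measured 11.1, 9.31 and 10.5 FPKM at 0 h and 32.2, 40.2 and 44.3 at 24 h. ENST00000429644, encoding 702 residues, measured 6.75, 7.08 and 7.23 FPKM at 0 h and 21.9, 25.4 and 30.6 at 24 h. Their log2 fold changes were 1.86 ± 0.16 and 1.803 ± 0.18 (limma adjusted p = 2.9e-05 and 5.3e-05). The share of ENST00000489715 was 58.4% ± 1.84 (SD, n = 3) at 0 h and 58.3% ± 1.90 at 24 h (exact permutation p = 1.0), in contrast to the shift within UGP2, though the difference between the genes was not tested.

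To set a member with matches beside one without, the window before GBE1 ENST00000429644, with GCGTG at -156 and ACGTG at -112, is shown next to that of PGM1, which rose by a like amount and held no match. The window of PYGB, with 2 matches and lower values at 24 h, is shown as well. None of the 3 windows overlaps an annotated exon.
GBE1 ENST00000429644, chr3:81810797-81811046, minus strand: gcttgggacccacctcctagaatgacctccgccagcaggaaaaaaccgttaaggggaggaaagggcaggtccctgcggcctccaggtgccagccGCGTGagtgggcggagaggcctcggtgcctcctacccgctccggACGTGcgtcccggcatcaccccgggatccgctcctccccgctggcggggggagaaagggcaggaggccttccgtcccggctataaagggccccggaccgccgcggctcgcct
PGM1 ENST00000371084, chr1:64058832-64059081, plus strand: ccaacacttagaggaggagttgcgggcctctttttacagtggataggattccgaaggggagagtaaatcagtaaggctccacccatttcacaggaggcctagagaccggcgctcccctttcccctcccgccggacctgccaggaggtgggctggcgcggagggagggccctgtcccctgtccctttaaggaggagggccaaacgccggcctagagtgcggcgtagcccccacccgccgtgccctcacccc
PYGB ENST00000216962, chr20:25228471-25228720, plus strand: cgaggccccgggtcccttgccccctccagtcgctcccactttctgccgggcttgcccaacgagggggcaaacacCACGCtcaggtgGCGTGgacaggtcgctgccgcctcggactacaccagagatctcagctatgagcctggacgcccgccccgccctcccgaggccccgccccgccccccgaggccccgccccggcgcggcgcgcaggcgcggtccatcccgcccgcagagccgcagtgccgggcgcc

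Matches were present in windows of some members called higher at 24 h and of some that were not called. The part of these words in the changes at 24 h was not tested. GYS1 held 2, at -108 and -85, and the start of GBE1 ENST00000489715 held 1, at -205. The windows of PYGL and GYG1 held 0, with 44 bases of the GYG1 window and 13 of that of PYGL ENST00000530336 annotated as exon of the same gene.

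PPP1R3B (ENSG00000173281, chr8:8993765-9009084, minus strand), the phosphatase subunit best known from liver, had the highest fold change at 24 h and the lowest level at 0 h among the 8 tested members. It measured 1.45, 1.63 and 2.12 FPKM at 0 h and 1.73, 1.60 and 1.68 at 1 h. After 2 h it stood at 2.53, 2.79 and 4.16, and after 24 h at 12.6, 15.2 and 18.8. The 2 h libraries already lay above all those at 0 h, yet the log2 fold change of 0.70 ± 0.19 did not pass (limma adjusted p = 0.14), and under TPM it was -0.14. At 24 h it was 2.84 ± 0.19 (limma adjusted p = 5.6e-07), and 1.82 under TPM, where it was the only member called higher.

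Within PPP1R3B the rise lay on ENST00000310455, which measured 0.802, 1.36 and 0.908 FPKM at 0 h and 11.8, 13.9 and 17.3 at 24 h. Its log2 fold change was 3.28 ± 0.28 (SE, limma adjusted p = 2.5e-05). ENST00000519699, with a separate upstream start and the same 285 residues encoded, was present as 2 assembled models. The longer, of 5680 bases, stayed between 0 and 1.54 FPKM in all 12 libraries, the shorter reached 0.761 in replicate 1 at 24 h, and the difference of the longer of 0.09 ± 0.52 at 24 h changed sign under some alternatives. The share of ENST00000310455 was 60.8% ± 21.1 (SD, n = 3) at 0 h and 92.5% ± 1.28 at 24 h (exact permutation p = 0.1). At these levels the 0 h share is imprecise, from 42.9% to 84.0% across 3 libraries. The window upstream of ENST00000310455 held 0 of the words, and that of ENST00000519699 held 4 matches, which are 2 places where ACGTG overlaps itself on both strands; 130 bases of that window lie in an exon on the opposite strand.

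PPP1R3C (ENSG00000119938, chr10:93388199-93392828, minus strand), the other targeting subunit, was near or at 0. Its highest value was 0.0416 FPKM, in replicate 2 at 0 h, and it was listed at 0 in all 3 libraries at 24 h. It did not pass the filter and was not tested.

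PYGL (ENSG00000100504, chr14:51324609-51411201, minus strand) was the most abundant member at every time. It measured 91.8, 82.7 and 86.7 FPKM at 0 h and stayed between 80.1 and 94.6 at 1 h and 2 h. At 24 h the values were 131, 137 and 151, all above the earlier libraries. The log2 fold change was 0.68 ± 0.091 (SE, limma adjusted p = 6.0e-05), below the fold threshold, and -0.19 under TPM, which is 0.59 above the median of all genes there.

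The transcripts of PYGL differed in sign at 24 h. ENST00000216392, the form of 847 residues, measured 37.1, 35.8 and 36.2 FPKM at 0 h and 62.7, 64.5 and 82.7 at 24 h (log2 difference of 0.92 ± 0.12, limma adjusted p = 0.00034). ENST00000544180, the form of 813 residues, measured 37.3, 29.7 and 33.2 FPKM at 0 h and 54.7, 58.9 and 54.5 at 24 h (0.74 ± 0.15, limma adjusted p = 0.0034). The retained-intron transcript ENST00000530336, which has no annotated coding sequence, was lower, with 16.6, 14.3 and 15.9 FPKM at 0 h and 9.57, 9.69 and 10.2 at 24 h (-0.64 ± 0.14, limma adjusted p = 0.0051). None of these passed the fold threshold on the deposited scale. Under TPM the values were 0.057 for ENST00000216392, -0.12 for ENST00000544180 and -1.38 for ENST00000530336 (limma adjusted p = 0.92, 0.84 and 0.013, within ranges over the alternatives of 0.00025 to 0.92, 0.0020 to 0.84 and 0.0035 to 0.023).

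As a share of PYGL the retained-intron transcript held 17.9% ± 0.544 (SD, n = 3) at 0 h, 19.3% ± 2.41 at 1 h and 21.4% ± 1.24 at 2 h. At 24 h it held 7.03% ± 0.287 (against 0 h, exact permutation p = 0.1). This share was singled out after the values had been seen. The leading transcript took 41.9% ± 1.45 of the gene at 0 h and 49.8% ± 4.20 at 24 h (exact permutation p = 0.1).

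**Figure D2:**
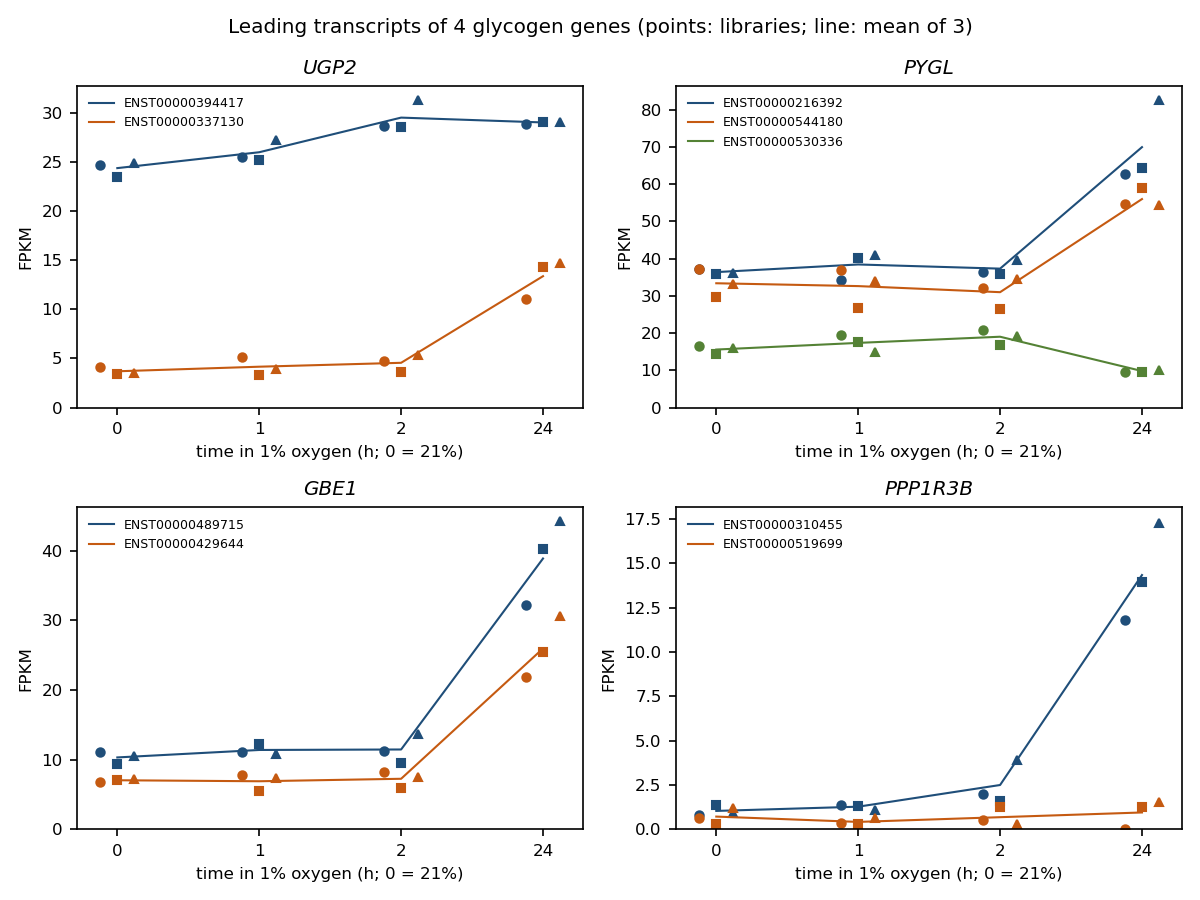
FPKM of the named transcripts of UGP2, PYGL, GBE1 and PPP1R3B (vertical axes, linear) against time in 1% oxygen (horizontal axes, h); points are libraries (circle, square and triangle for replicates 1, 2 and 3) and lines join the means of 3. In UGP2 the minor transcript ENST00000337130 makes up most of the difference at 24 h, in PYGL the retained-intron transcript is lower and the coding ones higher at 24 h in FPKM as deposited, and in GBE1 both transcripts are higher. Under TPM, not drawn, ENST00000394417 of UGP2 and ENST00000544180 of PYGL turn negative.

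PYGB (ENSG00000100994, chr20:25228721-25278648, plus strand) measured 26.4, 25.3 and 24.5 FPKM at 0 h and 21.4, 24.4 and 25.3 at 1 h. It stood at 22.3, 22.9 and 22.5 at 2 h and at 21.5, 15.5 and 17.1 at 24 h. The 2 h and 24 h libraries were all below those at 0 h, with replicate 1 of 24 h nearest to them. The log2 fold change at 24 h was -0.49 ± 0.12 (SE, limma adjusted p = 0.0034) without reaching the fold threshold, and -1.29 under TPM. ENST00000216962 carried 97.0% ± 1.29 (SD, n = 3) of the gene at 0 h and 97.8% ± 0.371 at 24 h.

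The ratio of the liver to the brain phosphorylase was higher at 24 h in all 3 libraries. This ratio within a library, which no scaling between libraries alters, ran from 3.27 to 3.53 PYGL per PYGB at 0 h and from 6.09 to 8.86 at 24 h. On the log2 scale the 0 h mean was 1.78 ± 0.059 (SD, n = 3), followed by 1.93 ± 0.16 after 1 h, 1.97 ± 0.14 after 2 h and 2.96 ± 0.31 after 24 h. The difference between 24 h and 0 h was 1.19, and the exact permutation test gave p = 0.1, the lowest value 3 against 3 can give. Leaving out each library in turn gave differences of 1.10 to 1.37.

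At the early times no glycogen gene was called. At 1 h 0 of 8 passed, where 0.006% of all genes did, and at 2 h 0 of 8, where 0.018% did. By adjusted p alone 0 members passed at 2 h, against 0.024% of all genes, while 2547 genes had an unadjusted p under 0.05 at 2 h, and 769 at 1 h. The 3 values lay outside the 0 h range for 2 of 8 members at 1 h (GYS1 and UGP2) and for 4 of 8 at 2 h (GYS1, UGP2, PPP1R3B and PYGB). Over all genes this held for 13.7% at 1 h and 25.3% at 2 h. Under TPM 0 members were called at either time, while 9 genes were called higher and 19 lower at 1 h, and 14 higher and 526 lower at 2 h. All 8 members had negative values there, with medians of -0.55 at 1 h and -0.98 at 2 h, beside -0.56 and -0.94 over all genes.

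The change from 2 h to 24 h was tested in the same fit. PPP1R3B (log2 difference 2.14, limma adjusted p = 4.5e-06), GBE1 (1.78, limma adjusted p = 1.4e-06), PGM1 (1.75, limma adjusted p = 6.2e-06) and GYS1 were called, all higher. That is 4 of 8 members, where 14.7% of all genes were called (7.44% higher and 7.28% lower, or 1241 and 1215 genes, against 545 and 85 under TPM, where 3 members were called and GYS1 was not). UGP2, which in FPKM as deposited was already higher at 2 h in every library, differed by 0.34 ± 0.095 between 2 h and 24 h (limma adjusted p = 0.0095).

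**Figure D3:**
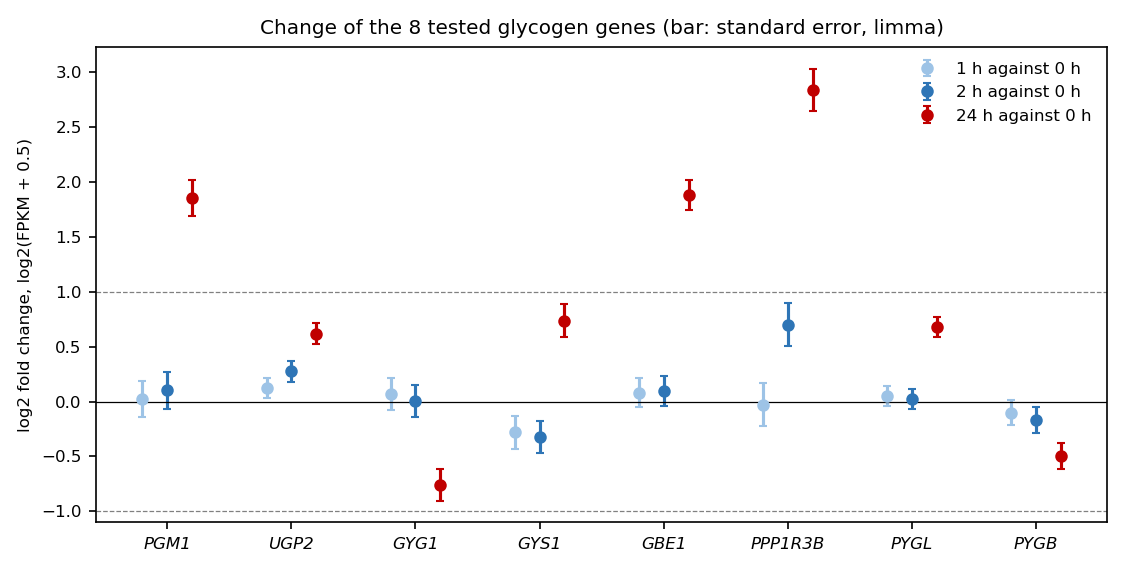
Log2 fold change of the 8 tested glycogen genes on log2(FPKM + 0.5) (vertical axis) at 1 h, 2 h and 24 h against 0 h; points are limma estimates, bars standard errors, and dashed lines the fold threshold of 1. In FPKM as deposited, differences at 1 h and 2 h stay within 0.70 of 0, and at 24 h PPP1R3B, GBE1 and PGM1 pass the line. Under TPM, not drawn, all 8 values at 1 h and 2 h and the 24 h values of GYS1, PYGL, UGP2, GYG1 and PYGB are negative.

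Counted by transcript, 27 of the 123 passed the filter and 7 were called at 24 h, all higher, against 11.5% of the 62162 transcripts tested. These were the named transcripts of PGM1 and PPP1R3B (ENST00000310455), both main GBE1 forms, UGP2 ENST00000337130, GYS1 ENST00000472004 and a minor GBE1 transcript of class j. GYS1 ENST00000472004 passed the filter through libraries in 1% oxygen alone. The minor GBE1 transcript was above 0.5 FPKM in the 24 h libraries alone and so passed the filter through the group where it is high. It is counted among the 7, and its call was lost with a pseudocount of 0.1 or 1, with no filter, with the 6 libraries of the contrast and without any 1 of the 0 h libraries, and it was not tested under TPM, at a minimum of 1 FPKM or without any 1 of the 24 h libraries. Under TPM 15 member transcripts were tested and 2 were called, ENST00000310455 of PPP1R3B higher and ENST00000296048 of GYG1 lower (-1.62). The calls of PGM1 (0.97), both main GBE1 forms (0.97 and 0.92) and UGP2 ENST00000337130 (0.83) were lost there. Over all transcripts the calls were 3111 higher and 4037 lower of 62162 tested as deposited, and 406 and 6287 of 37644 tested under TPM. In FPKM as deposited no transcript of GYG1, PYGL or PYGB was called, and with median-of-ratios scaling PYGL ENST00000216392 was (1.004).

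The order of levels differed between 0 h and 24 h. At 0 h it ran from PYGL (87.0 ± 4.58 FPKM, SD, n = 3) over UGP2 (30.8 ± 1.09), PYGB (25.4 ± 0.925), GYG1 (23.1 ± 1.58), GBE1 (17.6 ± 1.03), GYS1 (16.9 ± 0.658), PGM1 (13.3 ± 1.31) and PPP1R3B (1.73 ± 0.347) to PPP1R3C. PYGB and GYG1 overlapped, as did GBE1 and GYS1. At 24 h PYGL (139.8 ± 10.4) was followed by GBE1 (66.7 ± 10.96), PGM1 (49.2 ± 4.23), UGP2 (47.7 ± 5.02), GYS1 (29.1 ± 7.93), PYGB (18.1 ± 3.12), PPP1R3B (15.5 ± 3.15) and GYG1 (13.7 ± 3.55). PGM1 and UGP2 overlapped, and so did PYGB with PPP1R3B and PPP1R3B with GYG1. PGM1 thus went from the seventh place to the third and GYG1 from the fourth to the eighth.

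Sister forms of the synthase, glycogenin, the phosphorylases and the targeting subunits were at low levels. GYS2, the liver synthase, lay between 0.0454 and 0.213 FPKM in all libraries, and GYG2 at 0. The muscle phosphorylase PYGM measured 0.193, 0.119 and 0.139 FPKM at 0 h and 0.455, 0.410 and 0.469 at 24 h, too low for the filter. Of the other targeting subunits, PPP1R3E measured 1.11, 0.734 and 1.14 FPKM at 0 h and 1.21, 3.42 and 3.03 at 24 h (0.95 ± 0.29, limma adjusted p = 0.015). PPP1R3D (0.17 ± 0.24) and PPP1R3F (0.50 ± 0.27) showed smaller differences, and PPP1R3A and PPP1R3G stayed below 0.33 FPKM.

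Around the members, lists named 41 further genes, of which 32 were tested and 6 called at 24 h, all higher, against the 8.76% of all genes called higher. All 6 were among the 11 genes of hexose entry and its neighbours. These were the glucose transporters SLC2A3 (3.93 ± 0.35, log2 fold change ± SE) and SLC2A1 (2.13 ± 0.092), the glucose phosphate isomerase GPI (2.35 ± 0.11), the hexokinases HK2 (2.21 ± 0.28) and HK1 (1.93 ± 0.13) and PGM2L1 (1.203 ± 0.19), which makes glucose 1,6-bisphosphate, the cofactor of PGM1. The limma adjusted p was 0.00023 for PGM2L1 and lower for the other 5. Under TPM, where 29 of the listed genes were tested, the calls of SLC2A1 (1.26), HK1 (1.05) and PGM2L1 (0.45) were lost. There 6 of the 29 were called lower, where 3995 of all 14531 genes tested were. PGM2, a paralogue of PGM1, measured 21.25, 21.7 and 21.99 FPKM at 0 h and 14.3, 22.5 and 20.5 at 24 h (-0.20 ± 0.14, and -1.01 under TPM).

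None of the 6 tested breakdown genes, 6 regulators and 6 AMPK subunits was called in FPKM as deposited. By adjusted p alone, which 41.5% of all genes passed, the breakdown list had 2 higher (GAA 0.74, PHKA1 0.51) and 2 lower (PHKB -0.62, PHKG2 -0.57), where GAA is the lysosomal glucosidase and the others are subunits of phosphorylase kinase. Among the regulators GSK3B (0.75), a kinase that inhibits the synthase, and PPP1CB (0.50), a catalytic subunit of phosphatase 1, were higher and GSK3A (-0.39) lower. Of the AMPK subunits PRKAG1 (-0.82), PRKAB1 (-0.81) and PRKAA1 (-0.56) were lower. Under TPM the higher values turned negative, at -0.11 for GAA, -0.27 for PHKA1, -0.095 for GSK3B and -0.37 for PPP1CB. The genes called lower there were PHKB, PHKG2, PRKAG1, PRKAB1, PRKAA1 and G6PC3, a glucose 6-phosphatase of the hexose list. The median log2 fold change over the 32 tested genes was 0.35, against -0.05 over all genes, and -0.43 against -0.78 under TPM. The TPM values of the listed genes were added after the data had been seen.

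**Figure D4:**
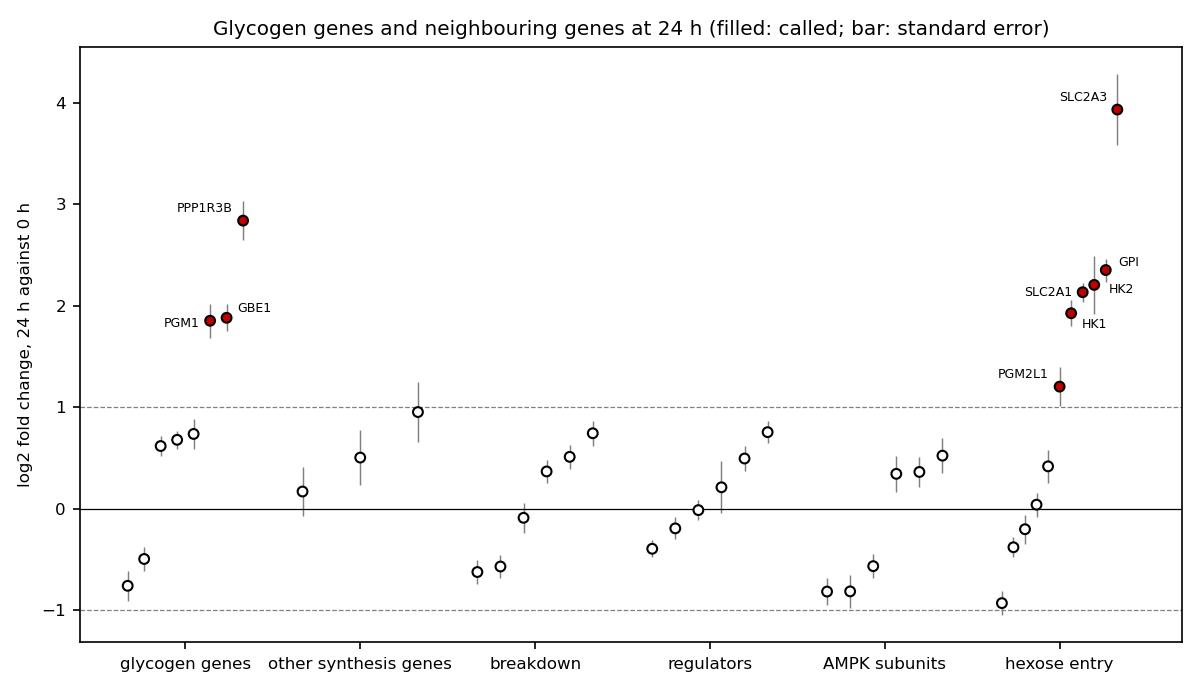
Log2 fold change at 24 h against 0 h on log2(FPKM + 0.5) (vertical axis) of the 8 tested glycogen genes and of the tested genes of 5 neighbouring lists (horizontal axis); points are limma estimates, bars standard errors, filled points called genes and dashed lines the fold threshold of 1. Called genes appear among the glycogen genes (3) and in the hexose entry list (6). Under TPM, not drawn, the glycogen genes GYS1, PYGL and UGP2 turn negative, and 3 of the 6 calls in the hexose entry list are lost.

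The genes with the time course most like that of each called member were found among 10261 genes with a mean of at least 5 FPKM, by the root mean square difference of the 3 log2 fold changes. For GBE1 these were GSN (0.019) and STARD10 (0.025), for PGM1 RREB1 (0.018) and BTBD2 (0.029), and for PPP1R3B HILPDA (0.056) and RNASE4 (0.094). HILPDA, a lipid droplet protein, had log2 fold changes of -0.09, 0.77 and 2.83 at 1, 2 and 24 h, beside -0.03, 0.70 and 2.84 for PPP1R3B.

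Several members overlap genes on the opposite strand, namely PYGL with ABHD12B, PYGB with ABHD12, GYG1 with HLTF and PGM1 with ITGB3BP, and the libraries were strand-specific. On the same strand the annotation places a processed pseudogene, SETP6, within GBE1 and a small RNA pseudogene, RN7SL130P, within PGM1.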

How the data were processed

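Strand-specific poly(A) RNA of 12 HCT116 libraries, 3 at each of 4 times, had been sequenced. The authors aligned the reads to hg19 (GRCh37) with Mapsplice, assembled and merged transcripts with Cufflinks and deposited FPKM values per transcript and library; base calling used CASAVA 1.8.2 per the submitters' processing notes. No scaling between libraries is named, and replicates were not pooled. FPKM of transcripts with class code = or j (286562 of 293768) was summed per gene name. Depth was not analysed here, and no counting interval was computed.

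Genes above 0.5 FPKM in at least 3 libraries were fitted with limma 3.58.1 (R 4.3.3; data.table, version 1.17.8) on log2(FPKM + 0.5), with trended eBayes, all 12 libraries, time as a factor and Benjamini-Hochberg adjustment over all genes, at the fold and false discovery thresholds of the study. Fold changes on this scale understate those of low genes. Transcripts were fitted alike. Shares and the PYGL to PYGB ratio were tested with exact permutation (two-sided), whose smallest p with 3 against 3 is 0.1. The other steps used Python 3.11.15 with scipy 1.17.1, pandas 2.3.3, numpy 2.4.6 and, for plots, matplotlib 3.10.9. The fit was tested on simulated data. Windows of 250 bases came from GRCh37 with GENCODE 44 starts. All 9 members were named, transcripts at 10% or more of their gene, and listed genes where called or an isoenzyme of a member; the minor called transcripts, the listed genes that passed the adjusted p alone and the marker genes were named after their values were seen. Members and lists were chosen with earlier results of these data known. Libraries of a time are called biological replicates by the submitters. Deviations of same-numbered libraries from their group means correlated by 0.13 to 0.36 between 0 h and 2 h, where every pair was over 0.1, by 0.095 to 0.34 between 0 h and 1 h and by -0.00078 to 0.24 between 0 h and 24 h. These values cannot settle whether the numbers pair libraries, since differently numbered libraries were not compared, and the sources do not describe a pairing. STBD1 was not analysed here, and 1 listed gene is not reported here. Alternatives covered scaling, pseudocount, filters, class codes, libraries in the fit, a replicate block, the fold threshold and leaving out each library.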

Additional observations from a re-analysis of the deposited data

Results flagged for a closer look

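The change from 0 h differed between 24 h and 2 h for 4 glycogen genes, by the contrast of the 2 times in the limma fit over all libraries. The change at 24 h exceeded that at 2 h by 2.14 for PPP1R3B (limma adjusted p = 4.5e-06), by 1.78 for GBE1 (limma adjusted p = 1.4e-06), by 1.75 for PGM1 (limma adjusted p = 6.2e-06) and by 1.06 for GYS1 (limma adjusted p = 9.9e-05), on the log2 scale. Both changes share the 0 h libraries. In each of these genes all 3 libraries at 24 h lay above all 3 at 2 h, which adds no support, since the genes were picked by their call in this contrast. The share of all genes without overlap between 2 h and 24 h was not computed. The call of GYS1 rested on replicate 3 of the 24 h group. No member group had 4 or more libraries, so single libraries were not tested as outliers.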

How the results depend on the processing

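Read depth limits low values by an amount not analysed here. TPM over all transcripts, under which 14531 genes were tested, shifted the 24 h median of all genes by over 0.1, to -0.78. It divided the calls into 209 higher and 3995 lower, against 1462 and 1586 as deposited, 1696 and 1316 with median-of-ratios scaling and 1405 and 2051 when TPM left out transcripts under 300 bases. Under TPM over all transcripts the values at 24 h against 0 h were -0.11 for GYS1, -0.24 for UGP2 and -0.19 for PYGL, all turned in sign, and -0.067 for ENST00000323798, -0.12 for ENST00000544180 and -0.59 for ENST00000394417. There GBE1 (1.00, limma adjusted p = 0.046, and 6e-07 to 0.046 over the alternatives) and PGM1 (0.97, limma adjusted p = 0.047, and 1.8e-06 to 0.047) lost their calls, and GYG1 (-1.52) and PYGB (-1.29) gained them. Of 15 member transcripts tested there 2 were called, and all-gene counts were 28 at 1 h, 540 at 2 h and 630 for 24 h against 2 h. ENST00000519699 turned negative with a pseudocount of 0.1 (-0.21) and without 0 h replicate 2 (-0.20), 24 h replicate 2 (-0.18) or 24 h replicate 3 (-0.28), and reached 0.74 at most without another library. The cause was not tested.

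With no minimum fold change, calls were 8 members (6 higher and 2 lower) and 6927 of 16680 genes at 24 h against 0 h. Against 2 h they were 7 members (6 higher and 1 lower) and 6097 genes. At 24 h against 0 h 12 member transcripts were called (10 higher and 2 lower), where 9088 of 62162 transcripts were. At 1 h 0 genes were called with TPM that left out short transcripts, no filter, only the 6 libraries of the contrast or the replicate block; at 2 h the count was 5 with the latter TPM or only filtered transcripts summed, 6 with a pseudocount of 0.1, 0 with no filter and 1 with 6 libraries. With 6 libraries 4457 transcripts were called at 24 h. Without 1 library each, counts ran from 0 to 1 at 1 h, 0 to 6 at 2 h, 2687 to 3239 at 24 h against 0 h, 2117 to 2742 against 2 h and 4675 to 6779 for transcripts, with 0 members called at 1 h and 2 h, 3 at 24 h against 0 h, 3 to 4 against 2 h and 5 to 7 member transcripts. GYS1 lost its call against 2 h without 24 h replicate 3 and under both TPM scalings.

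Same-numbered libraries correlated by -0.083 to 0.43 in their deviations, over 0.1 in 10 of 18 pairs, which include all 3 pairs of 0 h with 2 h and of 1 h with 2 h. The replicate block gave 0, 0, 3 and 4 called members in the 4 contrasts, as without it, 6 member transcripts in place of 7 (GYS1 ENST00000472004 was lost), 4 genes at 2 h in place of 3 and 3106 genes at 24 h against 0 h. The setting with no minimum fold change, given above, is left out of the tallies that follow. Over member genes and the other alternatives at 24 h against 0 h, 185 values kept direction and side of the threshold, 3 reversed, 2 lost and 2 gained the call. Against 2 h, again without that setting, 189 kept both and 3 lost the call. For the named transcripts, likewise without it, 259 kept both, 7 reversed, 4 lost and 2 gained the call.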
